A study of Homo sapiens with 7 samples.

Results

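The mitotic spindle and kinetochore genes are 40 of the 56236 annotated genes whose transcripts were summed in 7 RNA-Seq libraries of esophageal squamous cell carcinoma (ESCC) cells. They were chosen by name, for known roles in mitosis, and all 40 were measured in every library: the lowest held 896 estimated counts. TE5 and KYSE140 are established human ESCC lines. TE5 cells carried a scramble shRNA, an shRNA against TP63 (p63 in the labels, shRNA ma), against SOX2 (shRNA 1) or against the long noncoding RNA CCAT1 (shRNA 2), and KYSE140 cells carried the scramble, TP63 (ma) or SOX2 (1) shRNA. All cells, the controls included, were infected with a pLKO.1 lentiviral shRNA vector. There was 1 library per condition and line, so an shRNA is represented by a single infected culture and no other hairpin against the same target was analysed here. The study silenced TP63 and SOX2 to find the genes they regulate, and CCAT1 to find the pathways that depend on it.

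The libraries summed to between 68532611 and 98036494 estimated counts. TP63 was at 25.4% of scramble upon TP63 silencing in TE5 and at 26.1% in KYSE140. SOX2 was at 39.6% of scramble upon SOX2 silencing in TE5 but at 77.4% in KYSE140, a much smaller reduction of the target. In TMM-scaled counts, TE5 cells with TP63 shRNA held 8163 for SOX2 against 12139 in scramble, while KYSE140 cells held 30428 against 29114. TP63 with SOX2 shRNA was above scramble in each line: 31500 against 27126 (TE5) and 62047 against 48733 (KYSE140). The other factor thus did not always stay at its scramble level, and its part in the results was not tested. The CCAT1 level was not analysed here, because its transcripts had no entry in the annotation used. Of the squamous markers, KRT5, KRT6A, KRT17, DSG3, PERP and TP63 were present in every library, while KRT14 was nearly absent from TE5 (0.202 to 0.546 TPM) against 304.0 to 1690.0 TPM in KYSE140. Markers of other cell types were at or near 0 for PTPRC, CD3E, PDGFRB, COL1A2 and COL3A1 in all 7 libraries (at most 1.73 TPM), whereas the other 2 markers were present: COL1A1 was at 12.6 to 44.4 TPM and CD68 at 2.57 to 116.0 TPM. The TE5 scramble library was sequenced on another flow cell than the TE5 knockdown libraries, and the KYSE140 scramble library in lane 2 while both KYSE140 knockdown libraries were in lane 3. Knockdown and lane therefore cannot be told apart in a comparison with scramble, whereas comparisons between knockdowns of a line are within a lane.

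As background, a cell enters mitosis when CDK1 bound to a B-type or A-type cyclin is switched on by CDC25 phosphatases and supported by the kinases PLK1 and AURKA. Kinetochores, built on CENPA-marked centromeres, then attach chromosomes to the spindle, and the checkpoint kinases and their partners hold back CDC20 and the anaphase-promoting complex until every chromosome is attached. After the cut of cohesin, the passenger complex, the central spindle motors and anillin divide the cell. Most of these genes are transcribed in G2 and mitosis, in many cases through a cell cycle homology region (CHR) element that the DREAM and B-MYB complexes bind near the start site, and through CCAAT boxes bound by NF-Y. FOXM1 is a transcription factor that acts on the same promoters.

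These promoter elements are a feature that the genes share and that did not serve to choose them. The RefSeq promoter table (GRCh38.p14) held 33 of the 40 genes, each with the 250 bases before and the 50 bases from the start site. A CHR sequence, TTTGAA or TTCGAA on either strand, lay in 24 of the 33 promoters (72.7%), against 16.6% of all 27305 promoters of the same length. CCAAT on either strand lay in 25 of them (75.8%), against 35.7% of all promoters, and 16 held 2 or more copies (48.5% against 11.3%). Both elements were found in 20 of the 33 promoters and neither in 4. A match is a description of the letters in this window and no evidence of binding. The 6 promoters below were taken from 12 leading genes, 2 of each role, as those with a CHR sequence nearest the start site, and are shown to let the element be seen in its surroundings. Other promoters with TTTGAA, such as those of BUB1B, INCENP, PLK1, CENPA, CDK1 and KIF23, are not printed. Of the leading genes, CCNB1, CENPE and AURKB had no CHR sequence in this window, and BIRC5 and TPX2 had no promoter entry. Each printed promoter runs from 120 bases before the start site to its first 20 bases, 5′ to 3′ on the gene's strand. CHR sequences and CCAAT boxes are in capitals (TTCAAA and ATTGG are the same elements on the other strand).
BUB1: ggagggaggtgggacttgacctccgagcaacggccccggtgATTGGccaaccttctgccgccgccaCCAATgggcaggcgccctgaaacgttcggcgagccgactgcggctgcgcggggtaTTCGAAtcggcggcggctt
NDC80: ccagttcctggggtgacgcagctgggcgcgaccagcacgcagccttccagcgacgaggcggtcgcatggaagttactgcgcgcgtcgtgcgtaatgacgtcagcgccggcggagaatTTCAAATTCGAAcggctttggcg
PRC1: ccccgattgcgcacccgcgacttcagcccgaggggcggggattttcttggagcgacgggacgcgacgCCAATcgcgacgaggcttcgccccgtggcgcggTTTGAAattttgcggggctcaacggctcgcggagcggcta
ANLN: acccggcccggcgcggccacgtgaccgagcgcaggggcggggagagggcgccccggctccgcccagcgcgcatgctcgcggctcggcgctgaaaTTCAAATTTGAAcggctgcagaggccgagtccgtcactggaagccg
KIF11: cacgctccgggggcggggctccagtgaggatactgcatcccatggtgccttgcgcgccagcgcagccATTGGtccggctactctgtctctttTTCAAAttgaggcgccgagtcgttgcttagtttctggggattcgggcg
CDC20: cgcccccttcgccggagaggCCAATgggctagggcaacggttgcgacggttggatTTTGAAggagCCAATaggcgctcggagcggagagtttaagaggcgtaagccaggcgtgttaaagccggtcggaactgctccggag
On GRCh38.p14, BUB1 is at chr2:110678044-110678183 on the minus strand, NDC80 at chr18:2571437-2571576 on the plus strand, PRC1 at chr15:90994516-90994655 on the minus strand, ANLN at chr7:36389742-36389881 on the plus strand, KIF11 at chr10:92593010-92593149 on the plus strand and CDC20 at chr1:43358861-43359000 on the plus strand. NDC80 and ANLN carry CHR sequences on both strands side by side, and the CDC20 element shown lies between a pair of CCAAT boxes. The genes with and without a CHR sequence had similar medians upon TP63 silencing in TE5, a log2 fold change of -0.46 over 24 genes and -0.54 over 9.

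In the scramble libraries the 40 genes were well expressed in both lines, with a median of 74.62 TPM in TE5 and 76.31 TPM in KYSE140. TPM is scaled for transcript length and allows levels of different genes to be compared. In TE5 the highest were UBE2C (337.8 TPM), the ubiquitin-conjugating enzyme of the anaphase-promoting complex, and FOXM1 (280.4 TPM). In KYSE140 they were PTTG1 (securin, the inhibitor of separase; 295.3 TPM) and CCNB1 (cyclin B1; 234.9 TPM). CENPE, the kinetochore motor, was the lowest in both lines, at 8.15 and 11.19 TPM. AURKA and FOXM1 stood apart between the lines: TE5 scramble cells held 3.79 times the TPM of KYSE140 for AURKA (110.8 against 29.25) and 3.14 times for FOXM1 (280.4 against 89.21). UBE2C was at 2.09 times. In the other direction KIF2C, a microtubule depolymerase, was at 0.46 times the KYSE140 level, KIF20A at 0.48 times and AURKB, the passenger kinase, at 0.49 times. With 1 library per line these ratios have no replicate check. The scramble libraries of the lines were on different flow cells, so line and flow cell cannot be told apart here. The ratios also depend on the scale. In TMM-scaled counts TE5 and KYSE140 scramble held 11782 and 3631 for AURKA, 45042 and 15967 for FOXM1, and 6093 and 14179 for KIF2C.

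**Figure D1:**
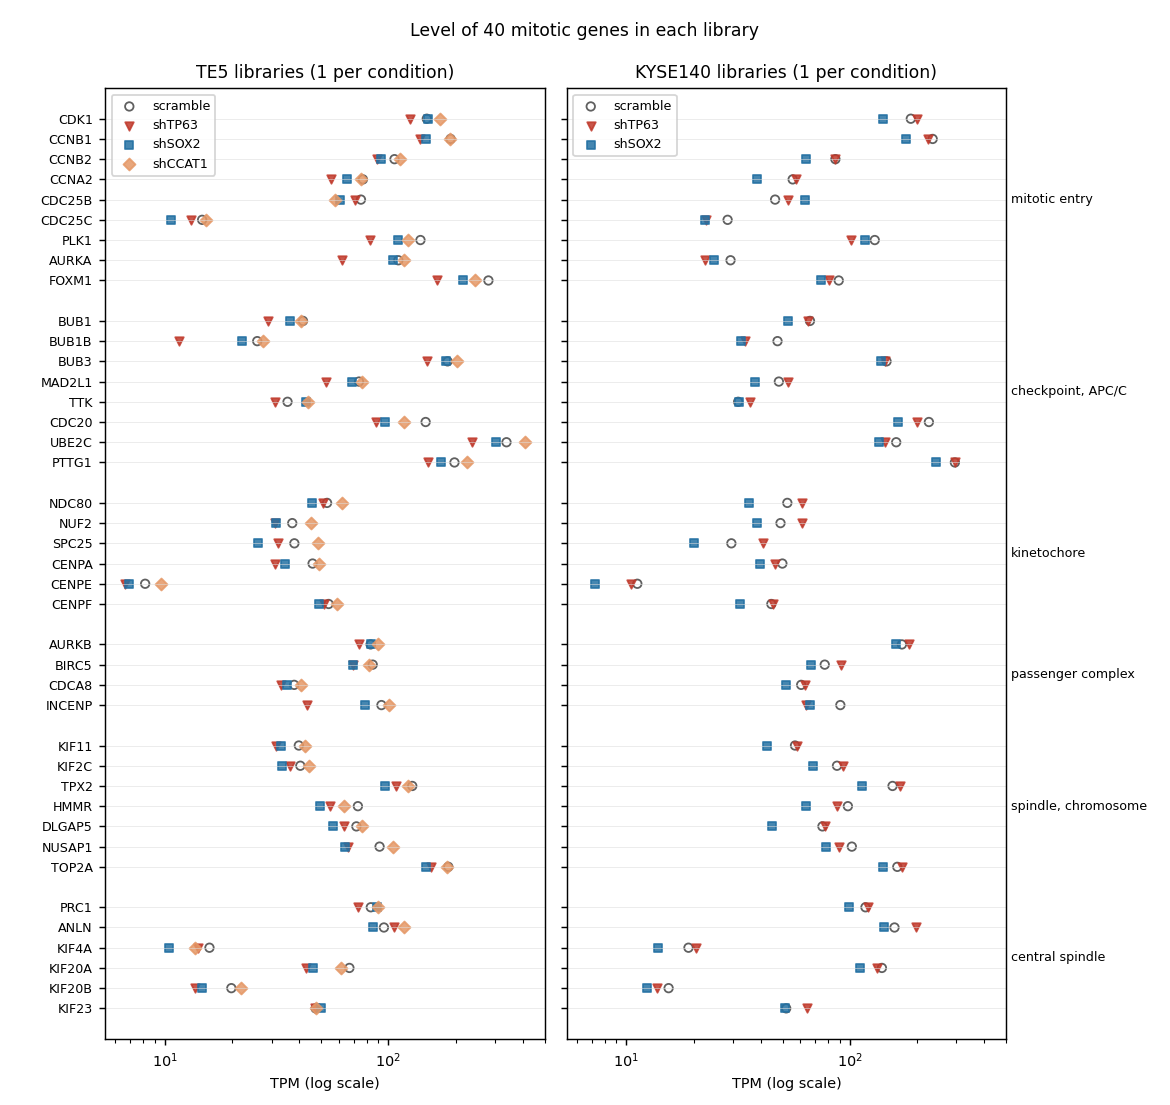
Level of each of the 40 genes in each library, in TPM on a log axis, with genes in rows by role and 1 marker per library. In TE5 the TP63 shRNA marker lies left of the scramble marker for 39 genes (ANLN is the exception), and in KYSE140 the SOX2 shRNA marker lies farthest left for 35.

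Upon TP63 silencing in TE5 cells, all 40 mitotic genes were lower than in scramble, or 39 when libraries were scaled to their totals or TPM was compared. Changes are given as log2 fold changes of normalised counts (estimated counts per gene scaled by the TMM method), with 95% counting intervals that cover counting error only. The median of the 40 genes was -0.46, against 0.07 over all 24405 genes tested and -0.12 over the genes with a mean of 500 or more normalised counts, which is the range these genes lie in. Of the genes at 500 or more counts, 6866 of 11177 were below scramble. Scaling to library totals moved the median of all genes from 0.07 to 0.21. Such scaling shifts all genes by nearly the same amount, so the median of the 40 genes was bound to stay at -0.53 relative to it. Relative to the median of all genes it was -0.49 in TPM and -0.41 over protein-coding transcripts, with 17 and 11 genes 1.5-fold below that median. At least a 1.5-fold reduction was seen in 13 genes, 32.5% of them, where 14.2% of all genes and 15.1% of those at 500 or more counts were that much lower. The count was 9 with library totals and 7 in TPM, where the median was -0.29. None was 1.5-fold higher, against 25.1% of all genes and 7.39% of those at 500 or more counts. In bulk RNA, fewer dividing cells and less of these RNAs per cell cannot be told apart. MKI67, a marker of cycling cells, had 40355 normalised counts in TE5 scramble and 33864, 30749 and 40658 upon TP63, SOX2 and CCAT1 silencing. In KYSE140 it had 20725 in scramble, and 24955 and 24201 upon TP63 and SOX2 silencing, above scramble in both. In TPM the KYSE140 values were 30.8, 34.5 and 27.8 in the same order, so on that scale the SOX2 library was below scramble. The part of MKI67-positive cells in the result was not tested.

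BUB1B and INCENP were lowest and were the only genes of the 40 past a 2-fold reduction, as 5.61% of all genes were. BUB1B, the checkpoint protein BubR1 (hg19 chr15:40453224-40513324), had 4687 normalised counts in scramble, 1459 upon TP63 silencing, 4081 upon SOX2 silencing and 4091 upon CCAT1 silencing, a log2 fold change of -1.68 (interval -1.76 to -1.60) with TP63 shRNA. The TP63 library stood alone and the other knockdown libraries were within 0.20 of scramble on the log2 scale. Compared in TPM the BUB1B change was -1.15. INCENP, the scaffold of the chromosomal passenger complex (chr11:61891470-61920641), had 12226, 5581, 10047 and 10564 normalised counts in the same order and a log2 fold change of -1.13 (-1.17 to -1.09). AURKA, the centrosomal Aurora kinase, had 11782 normalised counts in scramble and 5968 upon TP63 silencing (-0.98), while the SOX2 and CCAT1 libraries, at 11416 and 11642, were close to scramble. FOXM1 had 45042, 22971, 35444 and 36068 normalised counts, so that all 3 knockdowns were below scramble and TP63 silencing the most (-0.97).

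The genes of checkpoint and anaphase onset had the lowest median of the 6 roles in TE5 upon TP63 silencing, with a median of -0.66 over 8 genes and 5 past 1.5-fold. Besides BUB1B these were CDC20, the activator of the anaphase-promoting complex (12506 to 6582 normalised counts, -0.93), MAD2L1 (5713 to 3539, -0.69), UBE2C (13224 to 8343, -0.66) and the checkpoint kinase BUB1 (7344 to 4686, -0.65). TTK, the kinase at the top of the checkpoint, changed by -0.34. Mitotic entry genes had a median of -0.56 over 9 genes, with AURKA, FOXM1, PLK1 (16063 to 8497, -0.92) and CCNA2 (11750 to 7619, -0.62) past 1.5-fold. CCNB1 went from 14031 to 9493 normalised counts (-0.56) and CDK1 from 14059 to 10787 (-0.38). CDC25B and CDC25C, the phosphatases that activate CDK1, each changed by -0.26.

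Among the 6 kinetochore and centromere genes the median was -0.46, and CENPA, the centromeric histone, was the single gene past 1.5-fold (2924 to 1682, -0.80). Of the microtubule-binding NDC80 complex, NDC80 went from 5439 to 4597 normalised counts (-0.24), NUF2 from 3443 to 2699 (-0.35) and SPC25 from 2283 to 1658 (-0.46), and SPC24, a further subunit that is not among the 40, from 2019 to 1429 (-0.50). The motor CENPE changed by -0.54. INCENP departed from the other 3 genes of the passenger complex, whose values were -0.41 for BIRC5 (survivin), -0.37 for AURKB and -0.35 for CDCA8 (borealin). The 7 spindle assembly and chromosome structure genes kept in a narrow range, from -0.51 for NUSAP1 to -0.31 for DLGAP5, with TPX2 at -0.40 (24780 to 18829 normalised counts) and KIF11, the motor that separates the spindle poles, at -0.49 (10842 to 7715). Of the central spindle and cytokinesis genes, the kinesins KIF20A (10925 to 6399, -0.77) and KIF20B (-0.73) were past 1.5-fold and PRC1, the antiparallel microtubule bundler, was just short of it (8857 to 5940, -0.58). ANLN, which links the contractile ring to the membrane, was the gene nearest to scramble of all 40 (24077 to 21920, -0.14) and is at 0.15 when the deposited TPM values are compared instead.

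**Figure D2:**
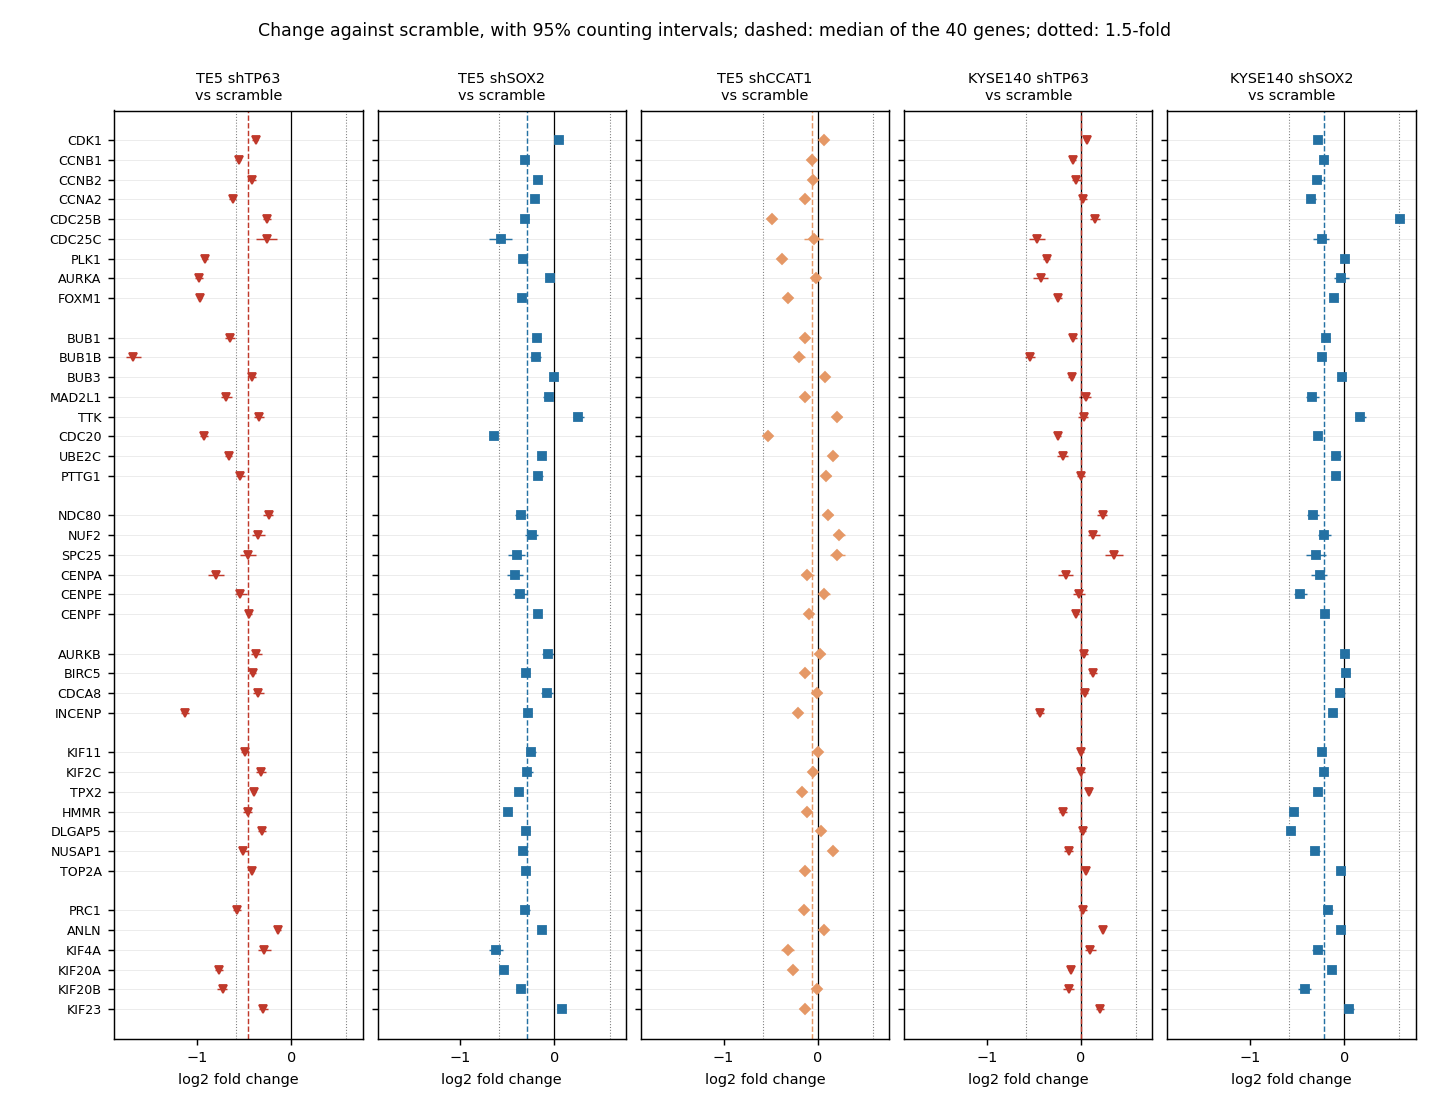
Log2 fold change of each of the 40 genes against the scramble library of the same line, in 5 panels, 1 per knockdown library; horizontal bars are 95% counting intervals, the dashed line is the median of the 40 genes and dotted lines mark 1.5-fold. In the TE5 TP63 panel every point lies left of 0 and BUB1B is farthest at -1.68, while in the KYSE140 TP63 panel the points straddle 0.

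Upon SOX2 silencing in TE5 cells the shift was in the same direction and smaller. Of the genes at 500 or more counts, 5998 of 11087 were below scramble (median -0.03). Of the 40 genes, 37 were below scramble, with a median of -0.29 (all genes -0.01). CDC20 (12506 to 8037 normalised counts, -0.64, interval -0.68 to -0.60) and KIF4A, a chromosome-binding kinesin (3649 to 2367, -0.62), were the 2 genes at least 1.5-fold lower (5.0%), where 11.8% of all genes and 5.33% of those at 500 or more counts were. None was 1.5-fold higher (13.2% and 3.32%). CDC25C (1397 to 940, -0.57), KIF20A (10925 to 7491, -0.54) and HMMR, a spindle pole protein (8806 to 6248, -0.49), followed. TTK was the gene farthest above scramble (5656 to 6745, 0.25), with KIF23 at 0.08 and CDK1 at 0.05. By role the medians ran from -0.36 for the kinetochore genes to -0.15 for the checkpoint genes, so that the role with the lowest median upon TP63 silencing was the nearest to scramble here.

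Upon CCAT1 silencing in TE5 cells, 6843 of 11122 genes at 500 or more counts were below scramble (median -0.08). The 40 genes lay near that background and near scramble, with 27 below and 13 above it and a median of -0.06 (all genes 0.02). None was 1.5-fold lower, against 12.2% of all genes and 6.01% of those at 500 or more counts, and none 1.5-fold higher (19.9% and 2% in the same sets). The 5 lowest were CDC20 (12506 to 8658 normalised counts, -0.53), CDC25B (10992 to 7835, -0.49), PLK1 (16063 to 12330, -0.38), FOXM1 (-0.32) and KIF4A (3649 to 2924, -0.32). The 3 highest were NUF2 (3443 to 4026, 0.23), SPC25 (2283 to 2640, 0.21) and TTK (5656 to 6541, 0.21). CDC20 was therefore among the 5 lowest of the 40 with each of the 3 shRNAs in TE5, comparisons that share the scramble library. The direction depends on scaling: with library totals the median was 0.12 and 8 genes were below scramble, and in TPM 0.09 and 13. Over protein-coding transcripts the median of the 40 genes was -0.05, above that of all genes (-0.10).

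Upon TP63 silencing in KYSE140 cells, 5675 of 11114 genes at 500 or more counts were below scramble (median -0.01). The 40 genes were split, 21 below and 19 above scramble, with a median of -0.00 (all genes 0.05). The count below scramble was 29 with DESeq2 size factors and 16 with library totals. None reached 1.5-fold in either direction, where 9.96% of all genes were lower and 16.6% higher, and 5.63% and 2.8% of those at 500 or more counts. The lowest was again BUB1B, with 9178 normalised counts in scramble, 6329 upon TP63 silencing and 7777 upon SOX2 silencing (TP63 shRNA -0.54, interval -0.59 to -0.49). CDC25C (3099 to 2242, -0.47), INCENP (11618 to 8585, -0.44), AURKA (3631 to 2698, -0.43) and PLK1 (16704 to 13008, -0.36) were the next 4. The CDC25C counts leave out a transcript with no annotation entry, which would be 0.65% of a larger total in scramble and 23.23% upon TP63 silencing. SPC25 was the highest (1950 to 2494, 0.35), followed by ANLN (45441 to 53344, 0.23) and NDC80 (5786 to 6773, 0.23). CDK1 (0.06), CCNB1 (-0.08), TPX2 (0.09) and KIF11 (-0.00) lay near scramble.

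Upon SOX2 silencing in KYSE140 cells 34 genes were below scramble and 6 above, with a median of -0.21 (all genes 0.06), although SOX2 itself was only reduced to 77.4%. None was 1.5-fold lower, against 12.8% of all genes and 5.46% of those at 500 or more counts, while 1, 2 and 3 genes were with DESeq2 size factors, library totals and TPM. CDC25B alone was 1.5-fold higher (7614 to 11433 normalised counts, 0.59, interval 0.54 to 0.64), where 14.5% of all genes and 5.25% of those at 500 or more counts were, and it was short of that mark under DESeq2 size factors, library totals and TPM. The lowest were DLGAP5 (13233 to 8944, -0.57), HMMR (13462 to 9318, -0.53), CENPE (5380 to 3894, -0.47), KIF20B (5342 to 3985, -0.42) and CCNA2 (9562 to 7523, -0.35). All 6 kinetochore genes and all 7 spindle assembly genes were below scramble, with a median of -0.28 in each set, while the 4 passenger complex genes had a median of -0.02. TTK was above scramble here too (5762 to 6502, 0.17).

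Upon TP63 silencing the lines shared part of their order. PLK1, AURKA, FOXM1, BUB1B, CDC20, CENPA and INCENP, 7 of the 10 lowest in TE5, were also among the 10 lowest in KYSE140. The other 3 were KIF20A and KIF20B (-0.11 and -0.13 in KYSE140) and MAD2L1, which was at 0.05 there. CDC25C was the second lowest in KYSE140 (-0.47) and among the nearest to scramble in TE5 (-0.26). These CDC25C values leave out a transcript with no annotation entry. It would be 0.65% of a larger CDC25C total in KYSE140 scramble and 23.23% upon TP63 silencing, and 11.79% and 1.02% in TE5. The CDC25C contrast between the lines therefore depends on the annotation. Over the 40 genes the log2 fold changes of the lines had a Spearman's rho of 0.70 and a Pearson's r of 0.74, against a Spearman's rho of 0.53 over the 11511 genes at a mean of 500 or more normalised counts. These are correlations across genes, which are not independent replicates, and they share no library between the lines. Upon SOX2 silencing the rho over the 40 genes was 0.46 (Pearson's r 0.38), against 0.40 over the 11511 genes, and 4 of the 10 lowest were shared (SPC25, CENPE, HMMR and KIF20B). SPC25 upon TP63 silencing (-0.46 in TE5, 0.35 in KYSE140) and CDC25B upon SOX2 silencing (-0.31 and 0.59) went opposite ways in the lines. With 1 library per condition and line, no difference between the lines could be tested.

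**Figure D3:**
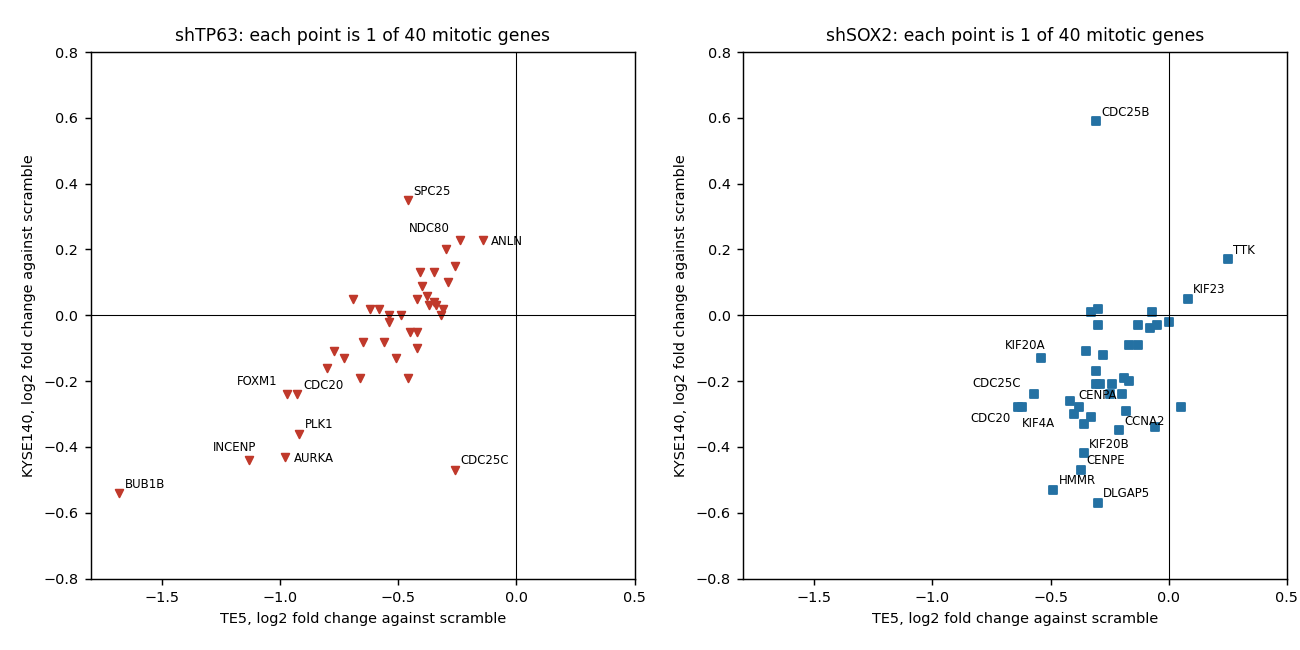
Log2 fold change against scramble of the 40 genes in KYSE140 (vertical axis) against TE5 (horizontal axis), upon TP63 silencing (left) and SOX2 silencing (right). BUB1B, INCENP, AURKA and PLK1 form the lower left end of the TP63 panel, and CDC25B (-0.31, 0.59) stands apart in the SOX2 panel.

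The knockdown libraries of a line were also compared with each other, within a lane. TE5 TP63 shRNA lay below TE5 SOX2 shRNA for 35 of the 40 genes (median -0.27), with 7 genes 1.5-fold lower (17.5%, against 14.7% of all genes) and none higher (24.4%). With library totals or in TPM the count was 3 genes, and the median was -0.14 and -0.08. The 7 were BUB1B (-1.48), AURKA (-0.94), INCENP (-0.85), MAD2L1, FOXM1, TTK and PLK1. Against TE5 CCAT1 shRNA it was lower for 38 genes (median -0.49), with 11 genes 1.5-fold lower (27.5%, against 19.4%) and none higher (23.2%), and BUB1B (-1.49), AURKA (-0.96) and INCENP (-0.92) were again the lowest. TE5 SOX2 shRNA against CCAT1 shRNA gave a median of -0.17, with SPC25 (2640 with CCAT1 shRNA and 1731 with SOX2 shRNA, -0.61) the single gene 1.5-fold lower (2.5%, against 21.5%) and none higher (15.4%). In KYSE140, TP63 shRNA lay above SOX2 shRNA for 30 of the 40 genes (median 0.14), with none 1.5-fold lower (14.4%) and SPC25 alone higher (0.66; 19.4% of all genes). All 19 genes of the kinetochore, spindle assembly and central spindle roles were above SOX2 shRNA there, whereas CDC25B (-0.44), AURKA (-0.40), PLK1 (-0.37), INCENP (-0.31) and BUB1B (-0.30) were the 5 lowest. Of the genes at 500 or more counts, 1501 of 11161 were 1.5-fold lower and 993 higher for TE5 TP63 against SOX2 shRNA. For TP63 against CCAT1 these were 1304 and 1117 of 11191, and for SOX2 against CCAT1 671 and 960 of 11105. In KYSE140 they were 1139 and 825 of 11163.

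To combine the lines, edgeR's quasi-likelihood test was fitted with knockdown and cell line as terms to the 6 scramble, TP63 and SOX2 libraries (2 residual degrees of freedom), which treats the lines as replicates. None of the 40 genes passed an adjusted p under 0.1 in any of the 3 contrasts, in either direction. For TP63 silencing 0.742% of all 23438 genes passed as lower and 0.196% as higher, for SOX2 silencing 0.124% and 0.0213%, and for TP63 against SOX2 shRNA 2.41% and 1.8%. The test itself gives no standard error. The SE printed here was derived from it, as the absolute log2 fold change divided by the square root of the F statistic. The lowest values for TP63 silencing were those of INCENP (log2 fold change -0.77 ± 0.18 SE, adjusted p = 0.145), AURKA (-0.69 ± 0.17, adjusted p = 0.156), PLK1 (-0.64 ± 0.16, adjusted p = 0.16) and BUB1B (-1.06 ± 0.28, adjusted p = 0.18). At an unadjusted p under 0.05, 9 of the 40 were lower upon TP63 silencing (22.5%, against 8.18% of all genes) and none higher (6.18%). Besides those 4 they were CDC20 (-0.58), FOXM1 (-0.60), UBE2C (-0.42), CENPA (-0.47) and KIF20A (-0.44), and each of the 9 was below scramble in both lines. Upon SOX2 silencing 5 were lower at that level (12.5%, against 5.1%) and none higher (3.84%): HMMR (-0.53 ± 0.14, adjusted p = 0.333), CDC20 (-0.49), KIF4A (-0.48), DLGAP5 (-0.45) and CENPE (-0.43). Between TP63 and SOX2 shRNA, AURKA (-0.63 ± 0.17, adjusted p = 0.125), BUB1B, INCENP and PLK1 were lower (4 genes, 10.0%, against 9.06%) and KIF4A higher (0.38; 1 gene, 2.5%, against 8.43%).

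DESeq2 on the same libraries called 6 of the 40 genes lower upon TP63 silencing (against 8.27% of the genes it tested), namely INCENP (adjusted p = 0.00883), BUB1B (adjusted p = 0.0103), AURKA (adjusted p = 0.0149), PLK1 (adjusted p = 0.0176), CDC20 (adjusted p = 0.0575) and FOXM1 (adjusted p = 0.06). It called HMMR for SOX2 silencing (adjusted p = 0.0766; 1 gene, against 2.74%) and AURKA, BUB1B and INCENP between the shRNAs (3 genes, against 9.37%). The calls depended on the tool, the filter and single libraries. With no filter on low counts, edgeR called AURKA, BUB1B, FOXM1, INCENP and PLK1 lower upon TP63 silencing (5 genes, against 1.97% of all genes in that fit) and AURKA, BUB1B and INCENP between the shRNAs (3 genes, against 2.9%). Without the KYSE140 TP63 library, where the TP63 estimate comes from TE5 alone, edgeR called 13 genes lower upon TP63 silencing (against 5.2% of all genes in that fit) and 5 between the shRNAs (against 5.66%). Without the KYSE140 SOX2 library it called 4 (against 3.47%) and 2 (against 2.51%), and without the TE5 SOX2 library 3 upon TP63 silencing (against 2.51%). For SOX2 silencing, CDC20 and HMMR were called without the TE5 TP63 library (2 genes, against 2.35%).

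The wider mitotic machinery, 89 other genes of the kinetochore, checkpoint, spindle, condensin and cytokinesis, was compared in the same libraries. Their median in TE5 was -0.40 upon TP63 silencing. Of the 89, 23 were 1.5-fold lower (against 14.2% of all genes and 15.1% of those at 500 or more counts) and none higher (25.1% and 7.39%). Upon SOX2 silencing the median was -0.21, with 5 of 89 lower (against 11.8% and 5.33%) and none higher (13.2% and 3.32%). In KYSE140 the medians were 0.01 and -0.10 upon TP63 and SOX2 silencing. The lowest upon TP63 silencing were NCAPD3, a subunit of condensin II, and TRIP13, the ATPase that disassembles checkpoint complexes, in both lines. NCAPD3 went from 11302 to 3424 normalised counts in TE5 (-1.72) and from 7393 to 3899 in KYSE140 (-0.92), and TRIP13 from 6572 to 2293 (-1.52) and from 5989 to 3781 (-0.66). CKAP2 in TE5 (-1.31) and CENPU in KYSE140 (-0.63) came next, and CENPQ was the highest in both lines (0.46 and 0.54). Upon SOX2 silencing the lowest were CENPM (-0.87), CENPP (-0.79) and CENPU (-0.77) in TE5, all centromere proteins, and CENPK (-0.89), the condensin subunit SMC2 (-0.61) and CDC27 (-0.59) in KYSE140, with MIS12 (0.23) and MAD2L1BP (0.46) the highest. Upon CCAT1 silencing, where the median was 0.03, UBE2S (-0.52), CENPB (-0.50) and CKAP5 (-0.41) were the lowest and CENPQ (0.71) the highest.

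Genes of DNA replication and nucleotide synthesis, which are transcribed earlier in the cycle, were lower than the mitotic genes in TE5. Their median upon TP63 silencing was -0.82 (30 of 39 genes 1.5-fold lower, against 14.2% of all genes). Upon SOX2 silencing it was -0.47 (10 of 39, against 11.8%), and in KYSE140 the medians were -0.15 and -0.14. The G1 cyclins, CDKs and CDK inhibitors had medians from -0.19 to 0.10 over the 5 comparisons. In edgeR, 2 of the 39 replication genes and 1 of the 89 other mitotic genes were called lower upon TP63 silencing (against 0.742% of all genes). At an unadjusted p under 0.05, 22 and 20 of them were lower (against 8.18%).

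**Figure D4:**
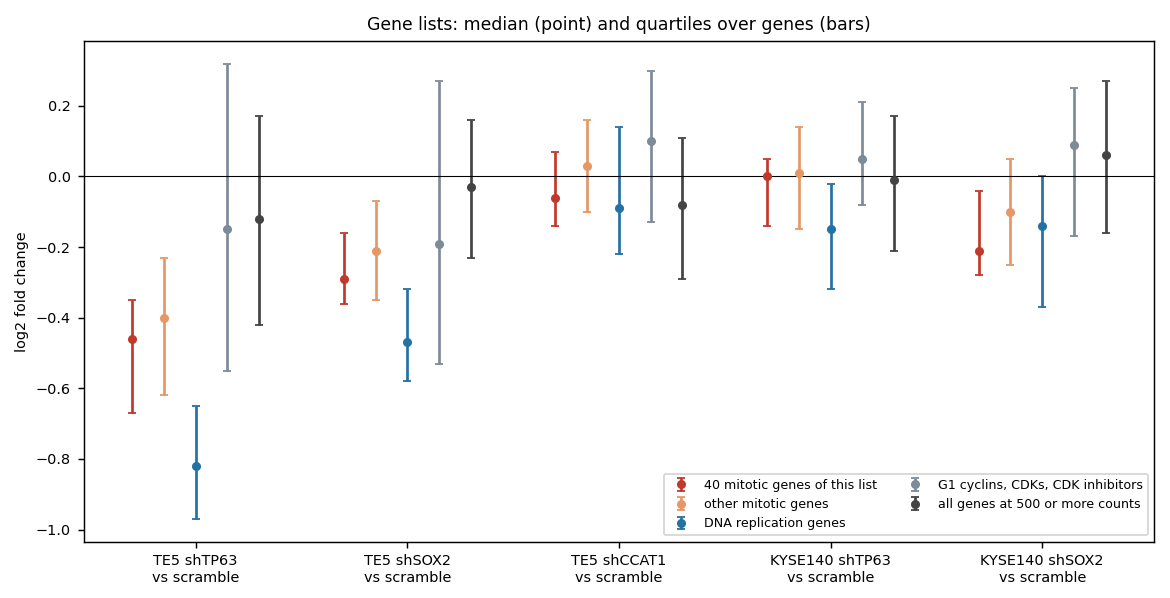
Median log2 fold change against scramble (points) and quartiles over genes (bars) for the 40 mitotic genes, 89 other mitotic genes, 39 DNA replication genes, the G1 genes and all genes at a mean of 500 or more normalised counts, in each knockdown library. In TE5 upon TP63 silencing the replication genes (-0.82) lie below the mitotic genes (-0.46), and upon SOX2 silencing in KYSE140 the order is turned (-0.14 and -0.21).

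A single coding transcript of 3725 bases held 94.7% to 98.8% of BUB1B counts in all 7 libraries. FOXM1 was split over coding transcripts of 3315 bases (54.7% to 63.8%), 3370 bases (23.5% to 30.8%) and 3475 bases (4.8% to 12.4%). For CENPA, the 1452-base coding transcript held 79.0% of counts in TE5 scramble, 58.2% upon TP63 silencing, 72.2% upon SOX2 silencing and 59.3% upon CCAT1 silencing. A 1277-base MAD2L1 transcript, annotated as a target of nonsense-mediated decay, held 46.6% to 55.7% of MAD2L1 counts. PRC1 is measured in part: a transcript between those of PRC1 in the files had no annotation entry and would add 39.97% to 51.03% of a larger PRC1 total, and likewise a KIF23 transcript 16.73% to 23.0%. For CDC25C such a transcript would be 0.65% in KYSE140 scramble and 23.23% upon TP63 silencing, and 11.79% and 1.02% in TE5. The CDC25C changes upon TP63 silencing are therefore incomplete in both lines. Sequence shared with other genes limits a few more values. NUSAP1 shared 84.6% and PRC1 60.1% of their 31-base words with other annotated genes, KIF4A 27.7% (most with KIF4B) and CDC20 20.6% (most with CDC20P1). BUB1B, INCENP, AURKA, FOXM1 and PLK1 shared 9.3%, 0.0%, 16.4%, 17.4% and 15.6%.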

How the data were processed

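RNA of TE5 and KYSE140 cells infected with pLKO.1 shRNA viruses was sequenced by the authors as paired ends, and Kallisto with the hg19 Ensembl transcriptome gave the deposited files, in which each transcript has an estimated count, unscaled between libraries, and a TPM value. Estimated counts and TPM were summed over 182863 of 196354 transcripts found in GENCODE 44 (hg19); the other 13491 (6.31% to 6.55% of counts) name no gene and entered neither library sizes nor tests, so FAM83D, UHRF1, PECAM1 and CCAT1 are not analysed here. Counts were scaled by TMM (edgeR 4.0.16, R 4.3.3). Pairs of libraries were compared as log2((a + 1)/(b + 1)) after dropping genes below 10 counts in both libraries, with exact conditional binomial intervals (95%) and a 1.5-fold mark; a pair has no replicates and so no p-value. For both lines jointly, rounded counts of 6 libraries entered the quasi-likelihood test of edgeR (Benjamini-Hochberg adjusted p under 0.1, common dispersion 0.0457), with DESeq2 1.42.0 as an alternative. The code was run on simulated data with larger changes than in the 40 genes, a lower dispersion and no cell line effect. That run therefore cannot show the power of the test for these genes. Nothing says that the cultures of a line were independent. Alternatives were other scalings, TPM, pseudocounts, filters, coding transcripts only and leaving out each library. Python 3.11.15 with SciPy 1.17.1 was used. Named were the 40 genes (per pair the 5 lowest and 3 highest), 12 leading genes for the alternatives, and of other mitotic genes at 100 or more counts the 3 lowest and the highest per pair. The genes and lists were chosen with earlier results of these data known.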

Additional observations from a re-analysis of the deposited data

Results flagged for a closer look

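Each line had 1 library per condition, so whether a gene's change differs between the lines was not tested. For 2 genes the lines moved in opposite directions by more than 0.25 on the log2 scale each way. SPC25, the linker subunit of the NDC80 complex, was at -0.46 upon TP63 silencing in TE5 (2283 to 1658 normalised counts) and at 0.35 in KYSE140 (1950 to 2494). CDC25B, a phosphatase that activates CDK1, was at -0.31 upon SOX2 silencing in TE5 (10992 to 8855) and at 0.59 in KYSE140 (7614 to 11433).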

How the results depend on the processing

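Of the values compared under alternatives, 927 were counted as unchanged, 316 as moved, 3 as past a threshold they had missed and 19 as changed in sign. All 19 were in the test over both lines. For pairs of libraries a change of sign was counted apart only where the main value was at least 1.5-fold. Smaller values that changed sign are among those counted as moved or unchanged. The causes were not tested. Scaled to library totals, the medians of the 40 genes were -0.32 (TE5 TP63 against scramble), 0.12 (TE5 CCAT1), 0.06 (KYSE140 TP63), -0.31 (KYSE140 SOX2), -0.14 (TE5 TP63 against SOX2), -0.32 (TE5 SOX2 against CCAT1) and 0.30 (KYSE140 TP63 against SOX2). In TPM they were -0.29 (TE5 TP63), -0.24 (TE5 SOX2), 0.09 (TE5 CCAT1), -0.34 (KYSE140 SOX2), -0.08 (TE5 TP63 against SOX2), -0.44 (TE5 TP63 against CCAT1), -0.32 (TE5 SOX2 against CCAT1) and 0.30 (KYSE140 TP63 against SOX2). With DESeq2 size factors KYSE140 TP63 was at -0.05. The number of genes 1.5-fold lower upon TP63 silencing in TE5 was 7 in TPM, and 2 genes were 2-fold lower, against 0 upon SOX2 silencing. In KYSE140 upon SOX2 silencing it was 1, 2 and 3 with DESeq2 size factors, library totals and TPM, and 0 were higher in each. For TE5 TP63 against SOX2 it was 3 with library totals and 3 in TPM. For TE5 SOX2 against CCAT1 it was 6 with library totals, 2 in TPM, 0 over coding transcripts and 2 when unlisted transcripts lying among those of a gene were added, an alternative chosen after seeing the data. For KYSE140 TP63 against SOX2, 4 genes were higher with library totals, 4 in TPM and 0 over coding transcripts.

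In the edgeR test over both lines, the genes called lower numbered 6 by DESeq2, 5 with no filter and 0 to 13 on leaving out a library for TP63 silencing. For SOX2 silencing they numbered 1 by DESeq2 and 0 to 2 on leaving out a library, and between the shRNAs 3 by DESeq2, 3 with no filter and 0 to 5. A single library left out assumes that the lone remaining sample varies like the others. The genes that changed sign were not called in the edgeR test. NDC80 upon TP63 silencing was -0.04 by DESeq2, -0.03 with RLE factors, -0.00 with no filter and -0.25 to 0.20 on leaving out a library. TPX2 upon TP63 silencing ranged from -0.38 to 0.04 and AURKB upon SOX2 silencing from -0.16 to 0.04. Between the shRNAs the ranges were -0.28 to 0.16 for CCNB1, -0.39 to 0.13 for CDC20, -0.32 to 0.05 for AURKB, -0.05 to 0.40 for TPX2 and -0.31 to 0.23 for PRC1, and with no cell line term CCNB1 was at 0.00 and PRC1 at 0.03. The libraries are paired by cell line, which is a term of the main test; without that term edgeR called 0 of the 40 genes in each of the 3 contrasts. The labels give no further replicate number to serve as a block.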
